A study of Mus musculus with 12 samples.

Results

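The genes described here are the conjugating enzymes of mouse liver: the glutathione S-transferases (GST), the microsomal glutathione S-transferases (MGST), the UDP-glucuronosyltransferases and related UDP-glycosyltransferases (UGT) and the sulfotransferases (SULT). Genes entered these families by symbol alone, and numbered 65 of the 53796 genes in the deposited table: 22 GST, 3 MGST, 21 UGT and 19 SULT genes. Of these, 48 reached at least 1 FPKM (fragments per kilobase of transcript, scaled to the depth of the library) in at least 3 libraries and were tested. The other 17 were not tested: Ugt2a1 and Sult1c1 were listed at 0 in all 12 libraries, Gsto2, Gstt4, Mgst2, Ugt1a2, Sult2b1 and Sult4a1 stayed below 1 FPKM in all 12, and 9 (Sult2a1 to Sult2a6, Sult3a1, Sult3a2 and Ugt1a8) reached 1 FPKM in 1 or 2 libraries. A member can pass this filter through a group in which it is high, so all counts below are over the tested members and not over the 65.

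RNA was sequenced from liver in 12 libraries, 3 in each of 4 groups, from mice of a study of hepatic ischemia, in which the blood supply of the liver is interrupted. The Sham group was wild type and carried a sham label, the WT group was wild type, the RIPK1 D138N group carried a mutation known to remove the kinase activity of RIPK1, and the TNFR1/2 KO group was labelled as lacking both receptors of the cytokine TNF. Only Sham is labelled as sham, and the title of the series is the source for treating the WT, RIPK1 D138N and TNFR1/2 KO groups as ischemic. Age, sex, strain, the length of ischemia, the time of collection and whether a library stands for 1 animal are not given in the sources. No sham library of a mutant genotype was analysed here, so genotype and operation cannot be told apart in a comparison of a mutant with Sham, and p-values measure only the spread between these samples. Sham and WT libraries carry no replicate number here, and their values are listed in no order that pairs them.

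Conjugation is the second step of drug and hormone clearance. A GST joins an electrophile to the tripeptide glutathione, a UGT transfers glucuronic acid (or another sugar) from a UDP-sugar, and a SULT transfers a sulfate group from the cofactor PAPS, so that the product becomes more soluble and can be exported into bile or blood. Hepatocytes are the main site of all 3 reactions. MGST enzymes are membrane proteins unrelated in sequence to the soluble GSTs, and Mgst1 also reduces lipid hydroperoxides. Several of these genes are known targets of the xenobiotic receptors CAR, PXR and AHR and of the antioxidant factor NRF2, and several differ between male and female mouse liver.

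The FPKM of all genes summed to 649373 to 750501 in Sham, 288934 to 303514 in WT, 489348 to 518580 in RIPK1 D138N and 441296 to 512931 in TNFR1/2 KO, and 10127 to 10644 genes reached 1 FPKM in a library. FPKM carries no counts. Whole-number steps among low values put the fragments behind 1 FPKM, relative to a WT library, at 0.328 to 1.77, lowest in 2 Sham libraries, where low values are coarsest. Tnfrsf1a, which encodes TNFR1, was at 34.9, 32.3 and 38.1 FPKM in WT, 18.9, 21 and 19.4 in RIPK1 D138N and 15.3, 21.9 and 18.4 in TNFR1/2 KO, and a gene-level value cannot show a partial deletion or a point mutation. RIPK1 D138N replicates 2 and 3 stood apart from all other libraries: Xist, transcribed from the inactive X chromosome, was at 20.1 and 23.4 FPKM there and at no more than 0.0824 FPKM in the other 10, and the Y-linked Ddx3y was at 0.0176 and 0 FPKM there against 12 to 37.4 FPKM. RIPK1 D138N replicate 1 had Xist at 0.0215 and Ddx3y at 21 FPKM. Where the levels of a member are listed for RIPK1 D138N, they are therefore in the order of replicates 1, 2 and 3. Differences over all RIPK1 D138N libraries mix replicate 1 with replicates 2 and 3, and are split only where stated.

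In FPKM as deposited, the transcript output of all 4 families was lowest in WT, where the FPKM of all genes also summed lowest. Summed over the 22 GST genes it was 5777, 5026 and 5509 FPKM in Sham and 1771, 2466 and 1699 FPKM in WT. RIPK1 D138N replicate 1 was at 5194 and replicates 2 and 3 at 3773 and 3790 FPKM, and TNFR1/2 KO was at 5547, 5276 and 5179.7 FPKM. Every WT library lay below every library of the other groups. The mean was 5437 ± 381 in Sham, 1978 ± 424 in WT, 4252 ± 816 in RIPK1 D138N and 5334 ± 191 in TNFR1/2 KO (SD, n = 3).

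The 3 MGST genes, almost wholly Mgst1, went from 6748 ± 1290 FPKM in Sham to 696 ± 109 in WT, a ratio of 9.70, and stood at 4121 ± 1440 in RIPK1 D138N and 4597 ± 506 in TNFR1/2 KO. The 21 UGT genes went from 2038 ± 255 in Sham to 381.4 ± 85.1 in WT, a ratio of 5.34, with 2047 ± 163 and 2049 ± 175 in the mutants. The 19 SULT genes went from 857.2 ± 115 to 201.5 ± 16.8, a ratio of 4.25, with 1169 ± 384 in RIPK1 D138N and 638.3 ± 98.6 in TNFR1/2 KO. In RIPK1 D138N, SULT genes summed to 725.4 FPKM in replicate 1 and to 1400.3 and 1382 in replicates 2 and 3, and MGST genes to 5782 against 3208 and 3373. The 65 genes together took 1.96 to 2.37% of all FPKM in Sham, 0.969 to 1.31% in WT, 2.1 to 2.68% in RIPK1 D138N and 2.5 to 2.66% in TNFR1/2 KO. With median-of-ratios scaling the mean GST sum was 4721 FPKM in Sham, 2218 in WT, 4449 in RIPK1 D138N and 5348 in TNFR1/2 KO. These sums are a description, with no test, and the share of all FPKM was not taken family by family.

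**Figure D1:**
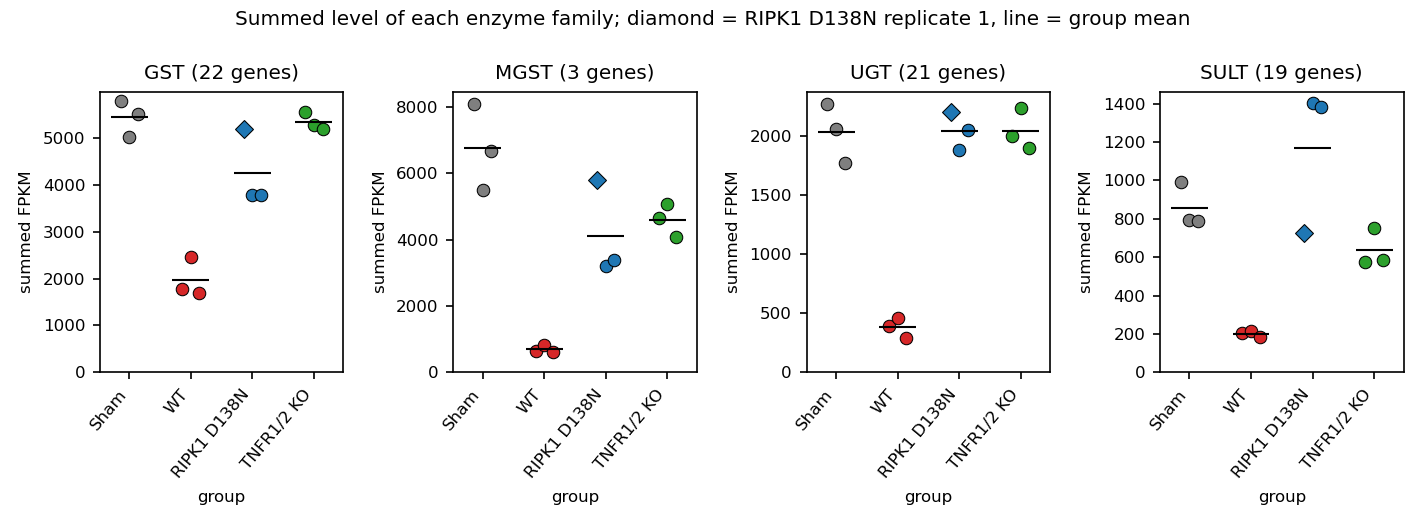
Summed FPKM of each family in every library, 1 panel per family with a linear axis from 0, groups on the horizontal axis. Points are libraries, the diamond is RIPK1 D138N replicate 1 and the line is the group mean; the WT libraries are the lowest in each panel (696 ± 109 FPKM for MGST against 6748 ± 1290 in Sham), and the diamond lies below replicates 2 and 3 for SULT and above them for GST, MGST and UGT.

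Gene by gene, 38 of the 48 tested members were lower and 2 were higher in WT than in Sham, where 41.9% of all 11718 genes tested were called lower and 16.4% higher (limma, adjusted p under 0.05). The members' median log2 difference was -1.91 and that of all genes -0.365, both as deposited; with median-of-ratios scaling the median of all genes moved to -0.094 and that of the members to -1.57, with 2 called higher and 36 lower. By family, 13 of 20 GST genes fell and 1 rose, both MGST genes fell, all 18 UGT genes fell and 5 of 8 SULT genes fell while 1 rose. All 18 UGT genes stayed below 0 under every scaling tried, with 17 called lower under median-of-ratios and under quantile scaling. The GST result depended more on scaling. Of the 20 GST genes, 1 was above 0 as deposited and 8 under quantile scaling, where 2 were called higher and 10 lower.

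In RIPK1 D138N against WT, 40 members were higher and 2 lower, where 29.8% of all genes were higher and 21.9% lower; the medians were 2.03 and 0.109. With replicate 1 as the only RIPK1 D138N library, 38 were higher and 2 lower (background 22% and 15.6%); here and below, such a fit takes its spread from the other groups and assumes that the lone library varies as they do. Without it 41 were higher and 4 lower (28.8% and 19.5%). In TNFR1/2 KO against WT, 40 members were higher and 2 lower, where 29.6% of all genes were higher and 17.5% lower; the medians were 1.93 and 0.142. These comparisons share the WT libraries, so their values are given side by side below and no overlap between them is read. Over all libraries, higher members were 15 of 20 GST, 2 of 2 MGST, 16 of 18 UGT and 7 of 8 SULT genes in RIPK1 D138N, and 15, 2, 17 and 6 in TNFR1/2 KO. Without RIPK1 D138N replicate 1, its higher members were 16, 2, 16 and 7. Over all libraries, the lower members were Gsta1 and Sult1e1 in RIPK1 D138N and likewise in TNFR1/2 KO. In WT against Sham the higher members were Gsta1 and Sult1e1.

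**Figure D2:**
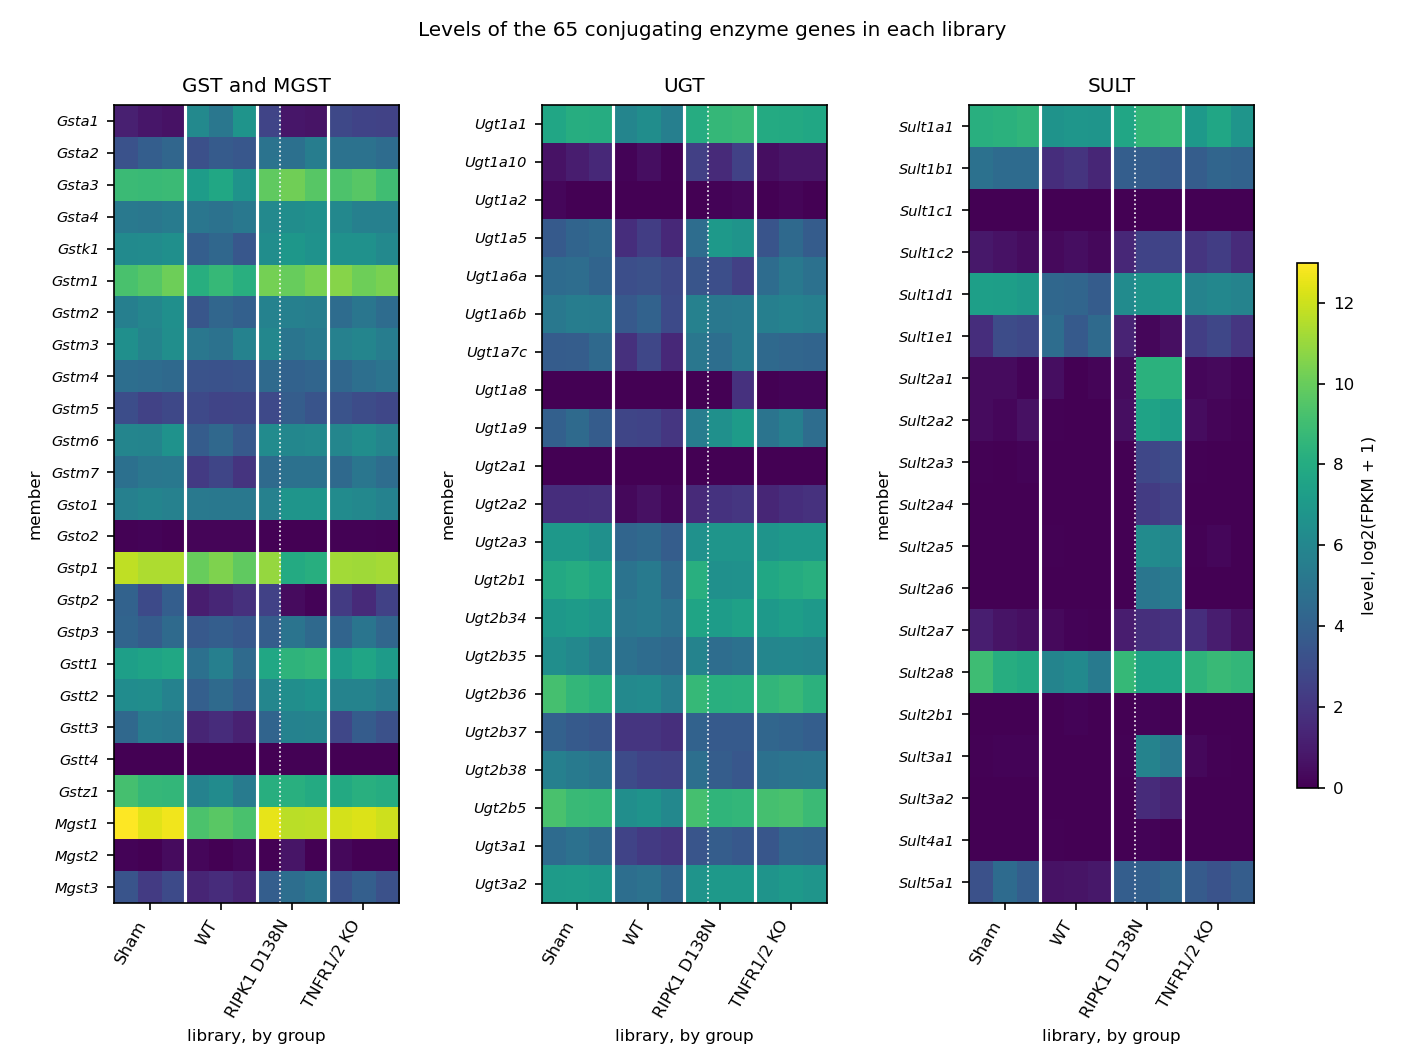
Level of the 65 members in each of the 12 libraries, as log2(FPKM + 1) on a color scale, in 3 panels (GST and MGST, UGT, SULT) with members as rows and libraries as columns. White lines separate the groups and a dotted line sets RIPK1 D138N replicate 1 apart. Low values are dark and high values bright. The WT columns are darkest for most rows, and Sult2a1 to Sult2a6, Sult3a1 and Sult3a2 are brighter in RIPK1 D138N replicates 2 and 3 alone.

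**Figure D3:**
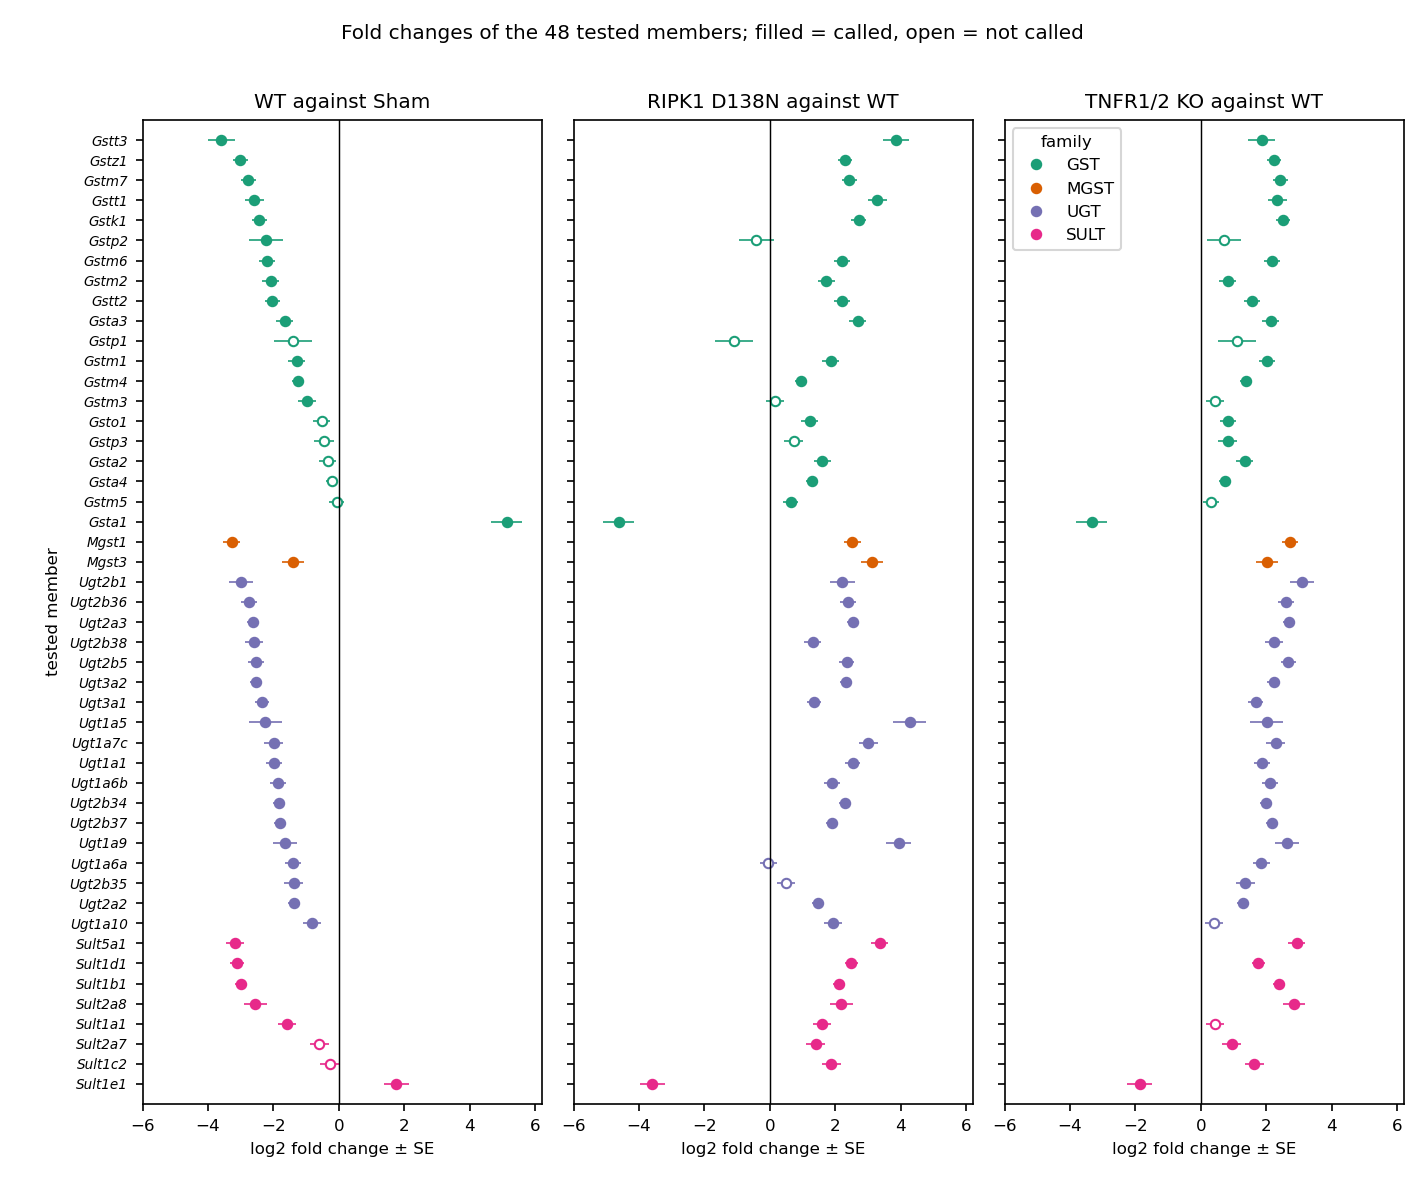
Difference in log2(FPKM + 1) with its standard error for the 48 tested members in WT against Sham, RIPK1 D138N against WT and TNFR1/2 KO against WT, with members as rows and 0 as the vertical line. Filled points were called at an adjusted p under 0.05 (38 lower and 2 higher in WT against Sham, 40 higher and 2 lower in each mutant against WT); Gsta1 and Sult1e1 lie on the opposite side from the other called members in each panel.

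Among the alpha class GSTs, which detoxify products of lipid peroxidation and bind bilirubin and steroids, neighbouring genes moved in different ways. Gsta1 and Gsta2 lie on chromosome 9 (mm10 genes at chr9:78230656-78242684, plus strand, and chr9:78331018-78355788, minus strand) and their coding sequences are 98% identical, with 31.3% of the 75-base stretches of Gsta1 also present in Gsta2, so fragments in shared stretches may be assigned to either. Their promoters, from 250 bases before to 50 after the RefSeq start (GRCm38.p6), are shown because the genes differ in the data; they are 77.3% identical. The window of Gsta1 is chr9:78230419-78230718 and that of Gsta2 is chr9:78347096-78347395, each given on its gene's strand, and the RefSeq start of Gsta2 lies 8643 bases from the GENCODE start. Capitals mark the STAT5 motif (TTCNNNGAA) and the xenobiotic response element core bound by AHR (GCGTG), searched on both strands.
Gsta1: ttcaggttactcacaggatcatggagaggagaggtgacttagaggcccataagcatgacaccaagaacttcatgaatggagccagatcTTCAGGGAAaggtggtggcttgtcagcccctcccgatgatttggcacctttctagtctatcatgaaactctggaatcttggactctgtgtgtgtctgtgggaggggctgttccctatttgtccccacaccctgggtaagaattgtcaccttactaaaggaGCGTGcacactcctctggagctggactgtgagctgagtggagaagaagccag
Gsta2: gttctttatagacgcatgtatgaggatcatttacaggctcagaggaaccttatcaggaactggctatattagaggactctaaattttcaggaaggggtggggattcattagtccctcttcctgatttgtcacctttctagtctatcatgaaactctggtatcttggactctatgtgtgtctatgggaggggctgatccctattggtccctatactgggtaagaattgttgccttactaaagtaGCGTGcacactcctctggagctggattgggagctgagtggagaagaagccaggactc
GCGTG begins 2 bases before the RefSeq start and runs across it in Gsta1 and begins 7 bases before it in Gsta2, and the STAT5 motif TTCAGGGAA is in Gsta1 alone of these windows.

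Gsta1 was at 1.24, 0.724 and 0.566 FPKM in Sham and at 67.4, 34.7 and 106 in WT. It was at 5.39 in RIPK1 D138N replicate 1, 0.704 and 0.623 in replicates 2 and 3, and 5.95, 5.23 and 4.85 in TNFR1/2 KO. WT alone was high, with no overlap with any other group. Gsta1 rose by 5.13 ± 0.47 (log2, ± SE; adjusted p = 2.14e-06) in WT against Sham and fell by 4.62 ± 0.47 (adjusted p = 6.57e-06) in RIPK1 D138N and by 3.34 ± 0.47 (adjusted p = 9.29e-05) in TNFR1/2 KO against WT. In TNFR1/2 KO it was 1.80 ± 0.47 above Sham (adjusted p = 0.0155), a call lost without the Sham library at 0.566 FPKM (adjusted p = 0.0508). The RIPK1 D138N difference of Gsta1 from WT was -3.32 with replicate 1 alone and -5.263 without replicate 1.

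Gsta2 was at 8.69, 13.9 and 18.3 FPKM in Sham, 8, 12.1 and 10.5 in WT, 29.9, 26.7 and 44.4 in RIPK1 D138N and 29.3, 29.4 and 22.8 in TNFR1/2 KO. Sham and WT overlapped, and every mutant library lay above both. The log2 difference of WT from Sham was -0.34 ± 0.26 (adjusted p = 0.277), whereas Gsta2 rose by 1.61 ± 0.26 (adjusted p = 0.000234) and 1.34 ± 0.26 (adjusted p = 0.00107) in the mutants against WT. Gsta4, the isoform with high activity toward 4-hydroxynonenal, had the same order: 37.6, 34.2 and 41.1 FPKM in Sham, 33.6, 28.6 and 35.7 in WT, 67.7, 82.7 and 92 in RIPK1 D138N and 65.4, 49.8 and 49.7 in TNFR1/2 KO. Its WT against Sham difference was -0.20 ± 0.17 (adjusted p = 0.338) and turned to 0.71 (adjusted p = 0.00448) under quantile normalization, which also ended its call in TNFR1/2 KO against WT (0.06, adjusted p = 0.802). Gsta3, the most abundant alpha class gene, fell from 458, 449.8 and 465 FPKM in Sham to 145, 212 and 100.3 in WT and was at 892, 1166 and 801 in RIPK1 D138N and 666, 787 and 517 in TNFR1/2 KO. It fell by 1.65 ± 0.26 in WT against Sham (adjusted p = 0.000148, or 0.0661 under quantile normalization) and rose by 2.69 ± 0.26 and 2.15 ± 0.26 in the mutants against WT.

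Of the 7 mu class genes, encoded in 1 cluster on chromosome 3 (chr3:107895821-108044894), 6 fell in WT. Gstm1, its most abundant member, was at 611, 757 and 1105 FPKM in Sham, 283, 419 and 294 in WT, 1233, 1009 and 1346 in RIPK1 D138N and 1585, 1124 and 1339 in TNFR1/2 KO. The WT libraries were the lowest, and the mutants reached or passed the Sham range. Gstm1 fell by 1.29 ± 0.25 in WT (adjusted p = 0.000712; -0.05 and 0.889 under quantile normalization) and was 1.86 ± 0.25 and 2.03 ± 0.25 higher in RIPK1 D138N and TNFR1/2 KO than in WT. Gstm7 had the largest fall of the class, from 26.6, 35.2 and 36 FPKM to 3.65, 5.46 and 2.94 (-2.76 ± 0.23, adjusted p = 9.67e-07), and stood at 21.3, 28.1 and 27.4 in RIPK1 D138N and 20.4, 33.7 and 23.9 in TNFR1/2 KO. Gstm2 was at 47.1, 61 and 88.9 FPKM in Sham, 10.3, 18.3 and 15.1 in WT, 53.3, 49.7 and 45.4 in RIPK1 D138N and 22.9, 33 and 23 in TNFR1/2 KO. TNFR1/2 KO lay between WT and Sham for this gene, 0.82 ± 0.25 above WT (adjusted p = 0.0169) and 1.26 ± 0.25 below Sham (adjusted p = 0.00357). The call against WT was lost without the WT library at 10.3 FPKM (adjusted p = 0.0887) or without TNFR1/2 KO replicate 2 (adjusted p = 0.0762). Gstm3 fell by 0.96 ± 0.28 in WT (87.7, 55.9 and 84.5 to 35.1, 29 and 52.7 FPKM, adjusted p = 0.00986) but was not called higher in either mutant, at 62.8, 32 and 38.1 and 51.7, 59.8 and 44.8 FPKM; the fall was not called with median-of-ratios scaling (-0.62, adjusted p = 0.0773) and was 0.06 under quantile normalization.

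The kappa gene, the zeta gene and all 3 tested theta genes fell in WT, from -3.60 ± 0.41 for Gstt3 to -2.03 ± 0.24 for Gstt2 (named after its values were seen). Gstk1, a mitochondrial and peroxisomal enzyme, was at 74.3, 75.7 and 89.5 FPKM in Sham, 13.5, 18.9 and 10.5 in WT, 80.7, 116 and 97.8 in RIPK1 D138N and 95, 93 and 68.1 in TNFR1/2 KO. Gstz1, which catalyses a step of tyrosine breakdown, was at 574, 402 and 396 FPKM in Sham, 52.4, 75.8 and 42.2 in WT, 288, 297 and 243 in RIPK1 D138N and 239, 294 and 261 in TNFR1/2 KO. WT stood well below the other groups for both. Gstz1 fell by 3.01 ± 0.23 (adjusted p = 4.38e-07) in WT and was below Sham by 0.71 ± 0.23 and 0.77 ± 0.23 in the mutants (adjusted p = 0.0307 and 0.0253); neither of these calls was made with median-of-ratios scaling (adjusted p = 0.228 and 0.139) or without the Sham library at 574 FPKM (0.103 and 0.0871).

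The theta class genes, on chromosome 10 (chr10:75774115-75837424), act on small halogenated compounds. Gstt1 was at 162, 186 and 215 FPKM in Sham, 26.9, 48.1 and 21.7 in WT, 210.5 in RIPK1 D138N replicate 1, 352 and 391 in replicates 2 and 3 and 143, 197 and 139 in TNFR1/2 KO. It fell by 2.58 ± 0.30 in WT and rose by 3.29 ± 0.30 and 2.33 ± 0.30 in the mutants against WT. Gstt3 was at 19.8, 41.9 and 35.6 FPKM in Sham and 1.55, 2.13 and 1.32 in WT. It was at 17.5 in RIPK1 D138N replicate 1, 52.9 and 55.8 in replicates 2 and 3 and 5.71, 12.9 and 8.5 in TNFR1/2 KO. Every RIPK1 D138N library lay above every TNFR1/2 KO library, and replicates 2 and 3 were also above the Sham range. Gstt3 fell by 3.60 ± 0.41 in WT (adjusted p = 1.1e-05) and rose by 3.86 ± 0.41 in RIPK1 D138N and 1.86 ± 0.41 in TNFR1/2 KO (adjusted p = 8.57e-06 and 0.00239). The RIPK1 D138N rise of Gstt3 was 2.808 with replicate 1 alone and 4.386 without replicate 1. Gsto1, an omega class enzyme that reduces dehydroascorbate, was at 49, 56.9 and 51.8 FPKM in Sham and 36.7, 35.5 and 36.4 in WT (-0.52 ± 0.25, adjusted p = 0.0932). It was at 51.8, 111 and 109 in RIPK1 D138N, a rise of 1.22 ± 0.25 over WT. That rise was 0.505 with replicate 1 alone and 1.577 without replicate 1. Gsto1 was named after its values were seen.

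Of the 3 pi class genes, Gstp1 and Gstp2 were called higher in neither mutant against WT over all libraries. Gstp1 was the most abundant soluble GST in Sham, and its neighbour Gstp2 has a coding sequence 98.1% identical to it, with 65.1% of 75-base stretches shared, so the split of fragments between these genes is uncertain. Both lie on chromosome 19 (mm10, Gstp1 at chr19:4035407-4037985, minus strand). The GENCODE intervals of Gstp1, Gstp2 and Gstp3 are not inside the loci deposited with their values, while those of the other 62 members are. The promoter of Gstp1 (GRCm38.p6, chr19:4037863-4038162, minus strand) is shown because this gene sets RIPK1 D138N replicate 1 apart from replicates 2 and 3. Capitals mark GCGTG.
Gstp1: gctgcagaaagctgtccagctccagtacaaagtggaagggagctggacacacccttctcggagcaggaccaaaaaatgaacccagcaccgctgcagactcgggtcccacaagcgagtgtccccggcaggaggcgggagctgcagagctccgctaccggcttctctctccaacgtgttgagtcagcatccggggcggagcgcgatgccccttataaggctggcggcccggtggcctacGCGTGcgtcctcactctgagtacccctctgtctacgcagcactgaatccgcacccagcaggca
It is 81.0% identical to that of Gstp2.

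Gstp1 was at 3415, 2669 and 2669 FPKM in Sham, 999, 1456 and 915 in WT and 2374, 2285 and 2463 in TNFR1/2 KO. RIPK1 D138N replicate 1 was at 1997 FPKM, against 242 and 283 for replicates 2 and 3. WT lay below Sham and TNFR1/2 KO without overlap, and RIPK1 D138N replicates 2 and 3 lay below every WT library while replicate 1 lay above them. With this spread no difference from WT was called over all libraries: -1.40 ± 0.58 for WT against Sham (adjusted p = 0.0559), -1.09 ± 0.58 for RIPK1 D138N against WT (adjusted p = 0.136) and 1.11 ± 0.58 for TNFR1/2 KO against WT (adjusted p = 0.138). With only the libraries of the groups compared, WT against Sham was called at the same size (adjusted p = 0.000713), as was TNFR1/2 KO against WT (adjusted p = 0.00501). Without replicate 1, RIPK1 D138N differed from WT by -2.06 (adjusted p = 1.64e-05) and from TNFR1/2 KO by -3.17 (adjusted p = 2.38e-06). Against Sham, RIPK1 D138N was lower by 2.49 ± 0.58 (adjusted p = 0.00752), a call that was not made with replicate 1 as its only library (-0.54, adjusted p = 0.314).

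Gstp2 was at 16, 6.57 and 13.7 FPKM in Sham, 1.05, 1.59 and 2.51 in WT, 4.67 in RIPK1 D138N replicate 1, 0.283 and 0.0931 in replicates 2 and 3 and 3.87, 1.92 and 4.65 in TNFR1/2 KO. It fell by 2.22 ± 0.53 in WT against Sham (adjusted p = 0.00289) and was not called in either mutant against WT over all libraries. Without replicate 1 it was lower in RIPK1 D138N than in WT (-1.16, adjusted p = 0.0168). Gstp3, named after its values were seen, was at 17, 12.8 and 21.4 FPKM in Sham, 11.6, 13.6 and 10.9 in WT, 13.4, 31 and 20.6 in RIPK1 D138N and 17.2, 32.6 and 18.7 in TNFR1/2 KO. It rose by 0.82 ± 0.30 in TNFR1/2 KO against WT (adjusted p = 0.0382). Its RIPK1 D138N against WT difference was 0.73 ± 0.30 over all libraries (adjusted p = 0.0563) and 1.02 without replicate 1 (adjusted p = 0.0104).

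Mgst1 was the most abundant of the 65 genes per kilobase of transcript in Sham and both mutant groups. Its promoter (GRCm38.p6, chr6:138140277-138140576, plus strand) is shown because it holds 1 of the 3 matches to the NRF2-bound antioxidant response element (TGACNNNGC) among the 57 members with a RefSeq promoter, in capitals on the opposite strand.
Mgst1: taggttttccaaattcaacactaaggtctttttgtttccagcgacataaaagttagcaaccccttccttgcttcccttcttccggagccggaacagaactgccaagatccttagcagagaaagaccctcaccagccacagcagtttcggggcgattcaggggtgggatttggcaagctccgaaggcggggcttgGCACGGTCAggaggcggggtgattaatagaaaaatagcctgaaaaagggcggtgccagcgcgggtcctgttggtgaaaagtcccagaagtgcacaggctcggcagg
That motif was in 12.39% of all 32851 RefSeq promoter windows of this length and in 5.3% of the members' windows.

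Mgst1 was at 8069.8, 5503 and 6652 FPKM in Sham and 638, 819.7 and 624 in WT. It was at 5769 in RIPK1 D138N replicate 1, 3182 and 3339 in replicates 2 and 3, and 4629, 5067 and 4064 in TNFR1/2 KO. WT was the lowest group without overlap. Mgst1 fell by 3.27 ± 0.26 in WT (adjusted p = 6.54e-07) and rose by 2.52 ± 0.26 and 2.73 ± 0.26 in RIPK1 D138N and TNFR1/2 KO against WT (adjusted p = 6.68e-06 and 4.52e-06). It was 0.76 ± 0.26 below Sham in RIPK1 D138N (adjusted p = 0.0421), a call that ended without replicate 2 (0.155) or 3 (0.151), without the Sham library at 8070 FPKM (0.124) or at 6652 FPKM (0.0956), and that turned to 0.05 (adjusted p = 0.898) under quantile normalization. Mgst3, which also has peroxidase activity, was at 9.21, 3.71 and 6.55 FPKM in Sham, 1.53, 2.17 and 1.49 in WT, 13.6, 25.1 and 33.9 in RIPK1 D138N and 8.62, 14.2 and 8.25 in TNFR1/2 KO. It rose by 3.13 ± 0.33 in RIPK1 D138N against WT (adjusted p = 9.22e-06) and was 1.73 ± 0.33 above Sham (adjusted p = 0.00253), which was not called with replicate 1 alone (1.03, adjusted p = 0.121).

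The UGT1 genes are transcribed from 1 locus on chromosome 1 (chr1:88055388-88220002), each from its own promoter and variable exon joined to shared exons, and the deposited table gives all 9 of them the same locus. The sources used here do not say how fragments of the shared exons were divided, so their separate levels are uncertain. Ugt1a1, the bilirubin UGT, was at 208, 274 and 263 FPKM in Sham, 59.6, 82.3 and 48.4 in WT, 266, 401 and 453 in RIPK1 D138N and 243, 237 and 209.7 in TNFR1/2 KO. WT was the lowest group, and RIPK1 D138N replicates 2 and 3 were above all other libraries. Ugt1a1 fell by 1.98 ± 0.24 in WT (adjusted p = 1.59e-05) and rose by 2.54 ± 0.24 and 1.87 ± 0.24 in the mutants against WT. Ugt1a7c was at 12.7, 13.3 and 21 FPKM in Sham, 2.54, 5.79 and 1.86 in WT, 35, 24.6 and 38.7 in RIPK1 D138N and 21.1, 18.6 and 17.4 in TNFR1/2 KO, and was 3.02 ± 0.30 higher in RIPK1 D138N than in WT.

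Ugt1a5 and Ugt1a9 had the largest rises in RIPK1 D138N among the UGT genes. Ugt1a5 was at 11.9, 17 and 20.6 FPKM in Sham, 2.27, 4.18 and 1.78 in WT and 9.45, 20.6 and 12.8 in TNFR1/2 KO. RIPK1 D138N replicate 1 was at 24.5 FPKM, against 126 and 106 for replicates 2 and 3. All 3 RIPK1 D138N libraries were above the Sham range, replicate 1 by little. The rise over WT was 4.28 ± 0.50 (adjusted p = 1.85e-05) in RIPK1 D138N and 2.02 ± 0.50 (adjusted p = 0.00515) in TNFR1/2 KO. The RIPK1 D138N rise over WT was 2.816 with replicate 1 alone and 5.007 without replicate 1. Over Sham, the RIPK1 D138N value was 2.03 ± 0.50 (adjusted p = 0.00974), and 0.57 (adjusted p = 0.412) with replicate 1 alone. Ugt1a9, an enzyme for phenols and fatty acids, was at 14.8, 21.8 and 13 FPKM in Sham, 5.49, 5.04 and 3.14 in WT, 43.8 in RIPK1 D138N replicate 1, 90.8 and 141 in replicates 2 and 3 and 30.9, 47.5 and 24.5 in TNFR1/2 KO. Every mutant library lay above every Sham library. The RIPK1 D138N value was 2.29 ± 0.37 above Sham (adjusted p = 0.000924) and that of TNFR1/2 KO 0.99 ± 0.37 (adjusted p = 0.0687). In RIPK1 D138N the difference of Ugt1a9 from Sham was 1.387 with replicate 1 alone and 2.739 without replicate 1.

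Ugt1a6a, a phenol UGT and classical AHR and NRF2 target, was the UGT gene lower in RIPK1 D138N than in TNFR1/2 KO. It was at 22.2, 23.8 and 17 FPKM in Sham and 7.66, 8.35 and 6.01 in WT. It was at 9.85, 7.62 and 4.51 in RIPK1 D138N and 22.8, 37.6 and 27.9 in TNFR1/2 KO. RIPK1 D138N overlapped WT, and TNFR1/2 KO overlapped Sham. Ugt1a6a fell by 1.40 ± 0.26 in WT against Sham (adjusted p = 0.000447) and rose by 1.85 ± 0.26 in TNFR1/2 KO against WT (adjusted p = 7.5e-05), and the RIPK1 D138N against WT difference was -0.05 ± 0.26 (adjusted p = 0.889). Its coding sequence is 98.4% identical to that of Ugt1a6b, with 63.9% of 75-base stretches shared, so the division between them is uncertain. Ugt1a6b was at 51.8, 35.8 and 40.6 FPKM in RIPK1 D138N and 47.3, 53.5 and 47.5 in TNFR1/2 KO, against 11.3, 15.8 and 6.64 in WT, and was named after its values were seen.

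The UGT2 genes, in a cluster on chromosome 5 (chr5:86889767-87490871), act on steroids, bile acids and drugs and hold the most abundant UGT transcripts. Ugt2b5 was at 619, 455 and 414 FPKM in Sham, 85.9, 101 and 67.1 in WT, 569.6, 360.1 and 389 in RIPK1 D138N and 571, 605 and 458 in TNFR1/2 KO. Ugt2b36 was at 570.2, 393 and 331, 67.6, 75.4 and 46.4, 410.3, 299 and 299 and 382, 434 and 329.7 FPKM in the same groups. Ugt2a3 was at 120.3, 120.0 and 89.7, 17.8, 20.4 and 13.1, 96, 107 and 108 and 106, 121 and 121 FPKM. For all 3 the WT libraries lay below the rest without overlap. Ugt2a3 fell by 2.62 ± 0.18 in WT (adjusted p = 2.99e-07), Ugt2b5 by 2.54 ± 0.23 and Ugt2b36 by 2.74 ± 0.24, and their rises over WT in the mutants lay between 2.35 ± 0.23 and 2.71 ± 0.18. Ugt2b34 was at 119.8, 142 and 112 FPKM in Sham, 34.8, 38.7 and 28.7 in WT, 193, 147 and 171 in RIPK1 D138N and 131, 155 and 128 in TNFR1/2 KO, with a fall of 1.84 ± 0.17 and rises of 2.29 ± 0.17 and 2.00 ± 0.17.

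Every UGT2B gene was lower in RIPK1 D138N replicates 2 and 3 than in replicate 1. The ratio of replicate 1 to the mean of the others was largest for Ugt2b1, Ugt2b38 and Ugt2b35 (3.119, 2.19 and 2.079). Ugt2b1 was at 229, 268 and 205 FPKM in Sham, 30.2, 38.1 and 20 in WT, 290.1 in RIPK1 D138N replicate 1, 91.4 and 94.6 in replicates 2 and 3 and 216, 253 and 290.1 in TNFR1/2 KO. Ugt2b38 was at 49.2, 38.4 and 31.8 FPKM in Sham, 6.95, 5.16 and 4.94 in WT, 25.9, 13.1 and 10.6 in RIPK1 D138N and 27.4, 30.7 and 32.6 in TNFR1/2 KO. Ugt2b35 was at 83.6, 65.9 and 45.1 FPKM in Sham, 27.4, 23.3 and 20.3 in WT, 54.3, 24.2 and 28.1 in RIPK1 D138N and 62.3, 64.7 and 59.3 in TNFR1/2 KO. Replicate 1 was the highest RIPK1 D138N library for each. Ugt2b35 was not called in RIPK1 D138N against WT over all libraries (0.49 ± 0.28, adjusted p = 0.164) and was called with replicate 1 alone (1.18, adjusted p = 0.0121). The coding sequence of Ugt2b38 is 97% identical to that of Ugt2b5, with 33.4% of 75-base stretches shared. The UGT3 genes on chromosome 15 use other UDP-sugars. Ugt3a2 was at 141, 145 and 128 FPKM in Sham, 25.1, 28.9 and 17 in WT, 105, 126 and 132 in RIPK1 D138N and 104, 125 and 108 in TNFR1/2 KO, and Ugt3a1 at 21.9, 27.7 and 21.9, 5.16, 3.62 and 3.02, 9.87, 13.5 and 11.1 and 10.2, 17.9 and 16.7. Ugt3a1 fell by 2.35 ± 0.23 in WT and rose by 1.35 ± 0.23 and 1.68 ± 0.23 in the mutants against WT, and was 0.99 ± 0.23 below Sham in RIPK1 D138N (adjusted p = 0.0063).

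Among SULT1 genes, Sult1a1, the phenol sulfotransferase, was the most abundant. It was at 291, 313 and 368 FPKM in Sham, 101, 111 and 108 in WT, 204 in RIPK1 D138N replicate 1, 393 and 415 in replicates 2 and 3 and 132, 204 and 110.1 in TNFR1/2 KO. TNFR1/2 KO lay below Sham and overlapped WT. Sult1a1 fell by 1.59 ± 0.28 in WT (adjusted p = 0.000321; 0.331 under quantile normalization) and rose by 1.59 ± 0.28 in RIPK1 D138N against WT (adjusted p = 0.000406; 0.0703 under quantile normalization). In TNFR1/2 KO its difference from WT was 0.43 ± 0.28 (adjusted p = 0.223) and it lay 1.16 ± 0.28 below Sham (adjusted p = 0.00929). The RIPK1 D138N rise of Sult1a1 over WT was 0.933 with replicate 1 alone and 1.912 without replicate 1. Sult1d1, which acts on catecholamines, was at 159, 154 and 136 FPKM in Sham, 19.5, 17.9 and 12.6 in WT, 75.1, 103 and 118 in RIPK1 D138N and 54.8, 64.9 and 54.3 in TNFR1/2 KO. Sult1b1, which acts on thyroid hormones, was at 28.3, 22.4 and 22.4, 2.26, 2.88 and 1.59, 13.9, 13.3 and 11.7 and 13.4, 18.1 and 16 FPKM in the same groups. Both mutants stood between WT and Sham for these genes, with no overlap with either group: Sult1d1 fell by 3.11 ± 0.20 in WT (adjusted p = 1.74e-07), rose by 2.5 ± 0.20 and 1.76 ± 0.20 in the mutants, and was 0.61 ± 0.20 and 1.35 ± 0.20 below Sham. The call of RIPK1 D138N below Sham was lost without any 1 Sham library (adjusted p = 0.0536 to 0.0859), without RIPK1 D138N replicate 1 (0.126) or without replicate 2 (0.0643).

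Sult1e1, the estrogen sulfotransferase, moved the other way. It was at 2.22, 7.1 and 6.03 FPKM in Sham and 24, 11.7 and 21.6 in WT. It was at 1.48 in RIPK1 D138N replicate 1, 0.151 and 0.446 in replicates 2 and 3 and 4.27, 5.89 and 3.12 in TNFR1/2 KO. Every WT library lay above every other library, and every RIPK1 D138N library lay below every Sham library. Sult1e1 rose by 1.76 ± 0.38 in WT against Sham (adjusted p = 0.00161) and fell by 3.59 ± 0.38 in RIPK1 D138N and 1.86 ± 0.38 in TNFR1/2 KO against WT (adjusted p = 9.12e-06 and 0.00152). RIPK1 D138N was 1.82 ± 0.38 below Sham (adjusted p = 0.00409), which was not called with replicate 1 alone (-1.20, adjusted p = 0.148).

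The SULT2A genes, which sulfate bile acids and hydroxysteroids, held the sharpest contrast within a group. Most lie in a cluster on chromosome 7, and Sult2a5 and Sult3a1 are shown as examples of genes seen in RIPK1 D138N replicates 2 and 3 and at or near 0 elsewhere (GRCm38.p6, chr7:13623717-13624016 and chr10:33857472-33857771, both on the plus strand). Capitals mark the HNF1 half-site GTTAAT on either strand in Sult2a5 and the STAT5 motif TTCNNNGAA in Sult3a1.
Sult2a5: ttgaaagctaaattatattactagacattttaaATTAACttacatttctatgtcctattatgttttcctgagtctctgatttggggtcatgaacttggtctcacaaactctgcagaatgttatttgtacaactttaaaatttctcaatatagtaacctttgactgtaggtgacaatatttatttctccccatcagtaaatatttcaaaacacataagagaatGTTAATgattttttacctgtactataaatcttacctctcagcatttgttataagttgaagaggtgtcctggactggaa
Sult3a1: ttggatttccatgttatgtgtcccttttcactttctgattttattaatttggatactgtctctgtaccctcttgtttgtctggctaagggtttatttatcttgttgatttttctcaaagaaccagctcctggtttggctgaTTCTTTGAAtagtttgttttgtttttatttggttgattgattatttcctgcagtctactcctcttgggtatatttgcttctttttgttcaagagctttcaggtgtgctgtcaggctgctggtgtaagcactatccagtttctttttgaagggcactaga
GTTAAT was in 24.6% of the 57 members' windows, among them those of Sult2a3, Sult2a4, Sult2a5 and Sult2a6, and in 7.1% of all windows. TTCNNNGAA was in 7.0% and 8.3%, and GCGTG in 19.3% and 32.39%. A match describes letters in these windows and not binding. The windows of Sult2a3, Sult2a4, Sult2a5 and Sult2a6 are 67.3 to 80.7% identical to each other, so their GTTAAT matches are not independent. These shares were not tested.

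Sult2a1, the bile acid and DHEA sulfotransferase, was at 315 and 312 FPKM in RIPK1 D138N replicates 2 and 3, at 0.315 in replicate 1 and at no more than 0.411 in the 9 libraries of the other groups. Sult2a2 was at 183 and 150.4 FPKM in replicates 2 and 3, 0.404 in replicate 1 and no more than 0.482 elsewhere. Sult2a5 was at 76.2 and 64.1 FPKM and Sult2a6 at 33.6 and 38.1 in replicates 2 and 3, while replicate 1 was listed at 0 for both. The same libraries alone held Sult2a3 (5.93 and 7.2 FPKM, listed at 0 in replicate 1) and Sult3a1, an amine sulfotransferase, at 55.7 and 35.8 FPKM against 0.0508 in replicate 1. These genes therefore tell 2 libraries from the other 10, not the genotype from the other groups, and were not tested. Sult2a1 and Sult2a5 have coding sequences 94.9% identical, with 1.4% of 75-base stretches shared. Other pairs share more: 15.4% of the stretches of Sult2a1 are in Sult2a2, and 23.6% of those of Sult2a2 are in Sult2a1. Counting all SULT genes, 16.8% of the stretches of Sult2a1 and 30.9% of those of Sult2a2 are shared, so the division of fragments between them is uncertain. Sult2a8, another member of the same subfamily, had a different pattern: 499, 272 and 241 FPKM in Sham, 57.3, 71 and 38.4 in WT, 413 in RIPK1 D138N replicate 1, 192 and 196 in replicates 2 and 3 and 354, 444 and 387 in TNFR1/2 KO. It fell by 2.55 ± 0.34 in WT (adjusted p = 3.85e-05) and rose by 2.19 ± 0.34 and 2.84 ± 0.34 in the mutants against WT. Sult5a1 was at 8.45, 22.3 and 13.9 FPKM in Sham, 0.542, 0.592 and 0.786 in WT, 13.9, 14.9 and 18.9 in RIPK1 D138N and 12.2, 9.11 and 13.5 in TNFR1/2 KO, and all WT libraries were below 1 FPKM. It fell by 3.18 ± 0.27 in WT and rose by 3.35 ± 0.27 and 2.93 ± 0.27 in the mutants.

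**Figure D4:**
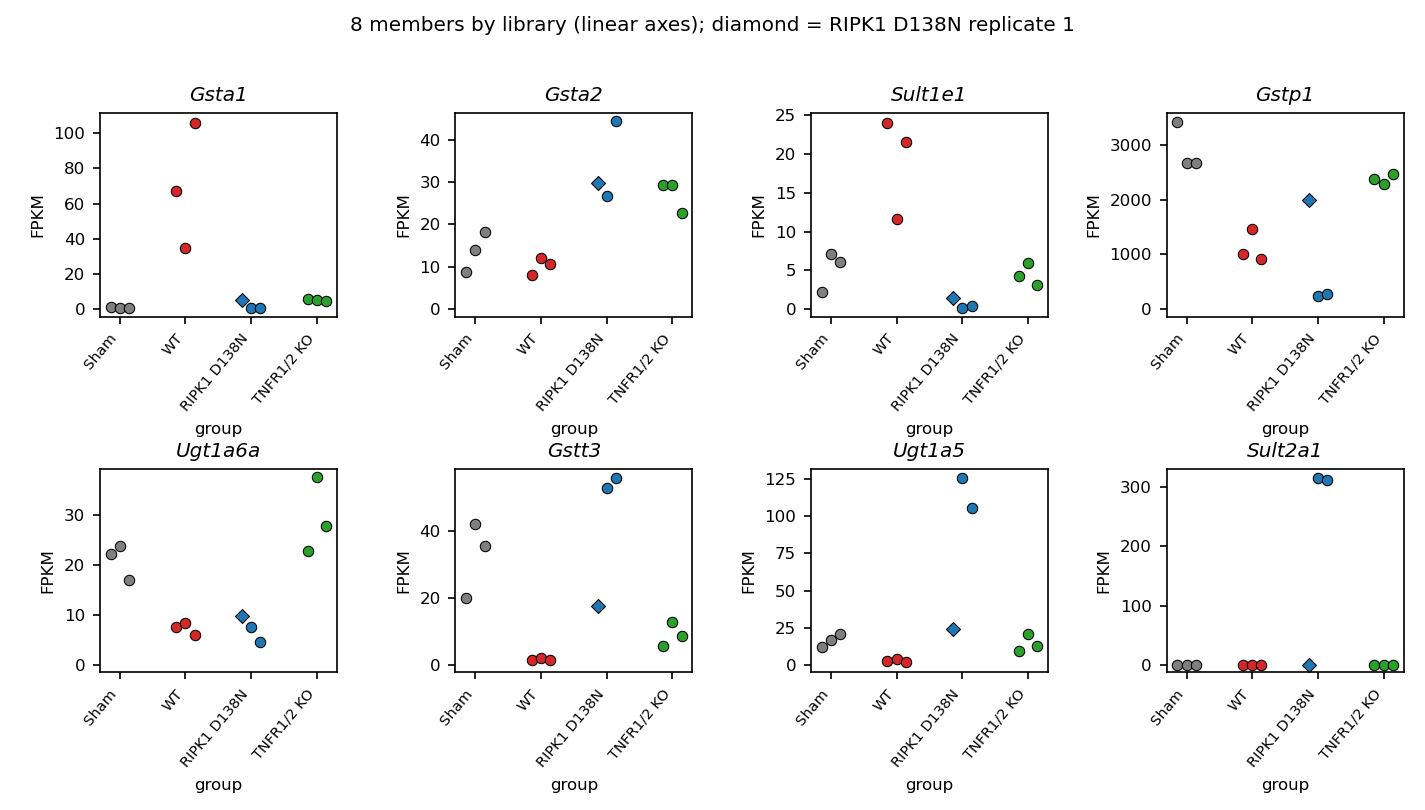
FPKM by library on linear axes from 0 for Gsta1, Gsta2, Sult1e1, Gstp1, Ugt1a6a, Gstt3, Ugt1a5 and Sult2a1, with groups on the horizontal axis and the diamond for RIPK1 D138N replicate 1. Gsta1 and Sult1e1 were highest in WT, Gsta2 was higher in both mutants than in WT and Sham, Ugt1a6a was low in WT and RIPK1 D138N, and Sult2a1 was above 0.411 FPKM in RIPK1 D138N replicates 2 and 3 alone.

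Compared directly, the mutants differed in few members. In RIPK1 D138N against TNFR1/2 KO, 2 of 48 members were higher and 1 lower, where 0.35% of all genes were higher and 0.58% lower; the medians were 0.082 and -0.053. The higher genes were Gstt3 (2.00 ± 0.41, adjusted p = 0.0431) and Ugt1a10 (1.54 ± 0.27, adjusted p = 0.022), and the lower was Ugt1a6a (-1.90 ± 0.26, adjusted p = 0.00332). Ugt1a10, named after its values were seen, was at 4.58, 1.88 and 4.72 FPKM in RIPK1 D138N and 0.373, 0.662 and 0.638 in TNFR1/2 KO. It reached 1 FPKM in all 3 RIPK1 D138N libraries, 2 Sham libraries and 0 of WT and TNFR1/2 KO, so that it passed the filter through the group in which it is high, and its call carries no weight of its own. It was not called without the filter (adjusted p = 0.0952) or with only these groups (0.0871), and neither was Gstt3 (0.148 and 0.148). The call of Gstt3 was lost without RIPK1 D138N replicate 2 or 3 (adjusted p = 0.173 and 0.21) and without TNFR1/2 KO replicate 1, 2 or 3 (adjusted p = 0.103, 0.0583 and 0.173). Without RIPK1 D138N replicate 3, or without any 1 TNFR1/2 KO replicate, limma called 0 members higher, with 11 to 14 higher at an unadjusted p under 0.05. With replicate 1 as the only RIPK1 D138N library, Gstt3 differed by 0.95 (adjusted p = 0.656) and Ugt1a6a by -1.46 (adjusted p = 0.106).

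The count rested on RIPK1 D138N replicate 1. Without it, 10 members were higher and 8 lower (background 2.35% and 2.66%), among them Ugt1a5 (2.99, adjusted p = 0.000108), Ugt1a9 (1.75, adjusted p = 0.00525), Sult1a1 (1.49, adjusted p = 0.00261), Gstp1 (-3.17, adjusted p = 2.38e-06), Sult1e1 (-2.04, adjusted p = 0.0072), Gsta1 (-1.93, adjusted p = 0.00511) and Ugt2b1 (-1.42, adjusted p = 0.0044). With it as the only RIPK1 D138N library, limma called Ugt1a10 higher and 0 members lower (background 0.243% and 0.0695%), with 3 higher and 2 lower at an unadjusted p under 0.05. Among members with at least 5 FPKM in a RIPK1 D138N library, those at least 4 times apart between replicate 1 and the others were Sult2a1, Sult2a2, Sult2a3, Sult2a5, Sult2a6, Sult3a1 and Ugt1a5, higher in both replicates 2 and 3, and Gstp1 and Gsta1, lower in both. Ratios of the mean of replicates 2 and 3 to replicate 1 were 995 for Sult2a1, 412.5 for Sult2a2, 900.1 for Sult3a1 and 4.73 for Ugt1a5, and replicate 1 was 7.60 times higher for Gstp1 and 8.13 times for Gsta1. Under 5 FPKM, Gstp2 was 24.8 times higher in replicate 1, at the levels given above. A further 4 members were 2 to 4 times higher in replicates 2 and 3 (Gsto1, Gstt3, Sult1c2 and Ugt1a9), 2 were 2 to 4 times lower (Sult2a8 and Ugt2b1), 34 lay within 2 times in at least 1 of them, and 16 stayed under 5 FPKM in the group. Just inside the 4-fold limit was Ugt1a5, at 24.5 against 126 and 106 FPKM, and just outside it was Gstt3, at 17.5 against 52.9 and 55.8 FPKM.

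**Figure D5:**
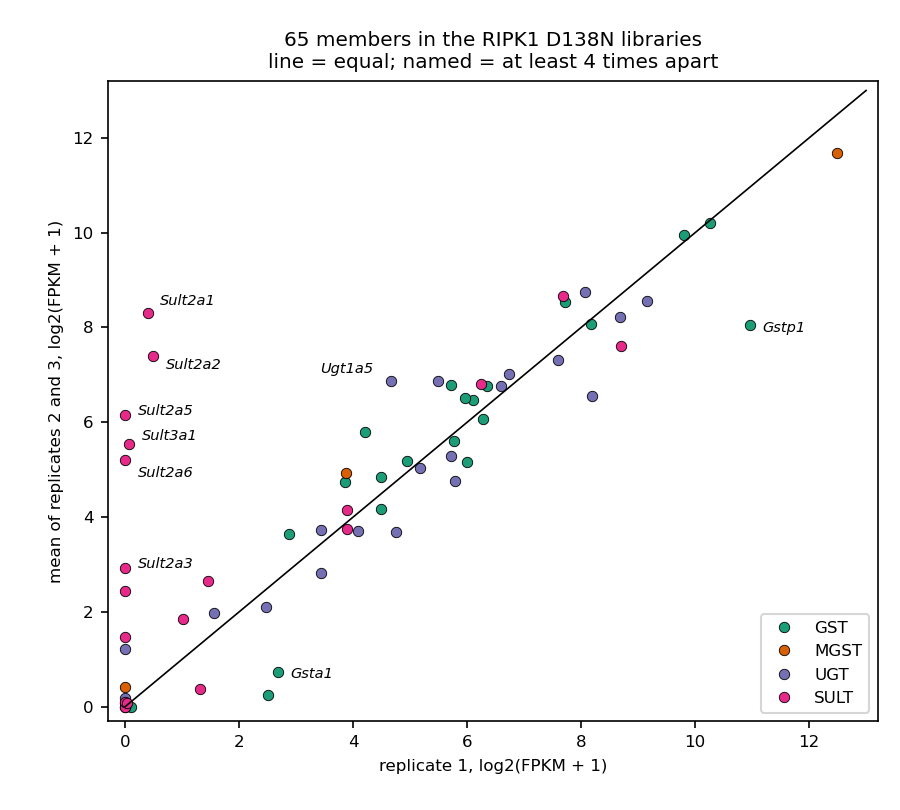
RIPK1 D138N replicate 1 on the horizontal axis against the mean of replicates 2 and 3 on the vertical axis, both as log2(FPKM + 1), 1 point per member with the diagonal of equal values. Named points are the 9 members at least 4 times apart with at least 5 FPKM; Sult2a1, Sult2a2, Sult3a1 and others lie at the left edge and Gstp1 and Gsta1 below the diagonal.

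Genes known to differ between female and male mouse liver include Sult2a1 and Sult3a1 as female-predominant and Gstp1 and Ugt2b1 as male-predominant genes. Outside the 65 genes, 17 female-biased liver genes summed to 51.76 FPKM in RIPK1 D138N replicate 1 and to 2695 and 2179 FPKM in replicates 2 and 3, and to 9.567 to 121 FPKM in the other groups. The 17 male-biased genes summed to 21850 FPKM in replicate 1 and to 750.3 and 520 FPKM in replicates 2 and 3. Their sum also differed among libraries with next to no Xist, at 10620 to 13330 FPKM in Sham, 4713 to 7655 in WT and 2024 to 2466 in TNFR1/2 KO. Of the 17, 2 were listed at 0 in all Sham libraries and 3 in all TNFR1/2 KO libraries. Over all libraries 2 of the 17 were higher and 1 lower in RIPK1 D138N than in WT, and 4 were higher and 3 lower in TNFR1/2 KO. Of the female-biased genes 11 were tested, all of them higher in RIPK1 D138N than in WT and 3 of them in TNFR1/2 KO, and such genes can pass the filter through the RIPK1 D138N libraries alone. Sex, which the labels do not give, and the genotype cannot be told apart in replicates 2 and 3, and the part of sex in any RIPK1 D138N result was not tested.

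Set against Sham, the mutants were not uniform. In RIPK1 D138N 9 members were higher and 12 lower, where 7.51% of all genes were higher and 22.7% lower, and the medians were 0.068 and -0.22. With replicate 1 alone these counts were 3 and 2 (background 2.6% and 6.56%), without it they were 14 and 12 (9.43% and 20.7%), without replicate 2 or without the Sham library highest in Gstz1 the lower count was 7, and with median-of-ratios scaling of all libraries 16 and 7. In TNFR1/2 KO 5 were higher and 7 lower, where 7.47% and 18.2% of all genes were; the counts were 2 and 4 without the Sham library highest in Gstz1 or without TNFR1/2 KO replicate 1, and 3 and 4 without TNFR1/2 KO replicate 3. These comparisons share the Sham libraries. The largest called difference from Sham was that of Gstp2 (-2.63 ± 0.53) in RIPK1 D138N and that of Gsta1 (1.80 ± 0.47) in TNFR1/2 KO. That of Gstp2 was -1.125 with replicate 1 alone and -3.385 without replicate 1. Gstp2 shares 65.1% of its 75-base stretches with Gstp1, so its level is uncertain. Side by side, in RIPK1 D138N and TNFR1/2 KO, Gsta2 was 1.27 ± 0.26 and 0.99 ± 0.26 from Sham, and Sult1b1 was -0.86 ± 0.18 and -0.59 ± 0.18 (adjusted p = 0.00449 and 0.0322). In TNFR1/2 KO the call of Gsta2 was lost without the Sham library at 8.69 FPKM (0.0549) or replicate 1 (0.0533), and that of Sult1b1 without the Sham library at 28.3 FPKM (0.0972), replicate 1 (0.116) or replicate 3 (0.0765).

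Cofactor supply was described from lists of other genes. Their counts in WT against Sham stand against the 16.4% of all genes called higher and 41.9% called lower, and those against WT against 29.8% and 21.9% in RIPK1 D138N and 29.6% and 17.5% in TNFR1/2 KO. Of 13 tested genes of glutathione synthesis and recycling, 4 rose and 6 fell in WT against Sham, the latter a share close to that of all genes, and their median log2 difference was -0.40 against -0.365 for all genes. The rises were Slc3a2, a cystine transporter subunit (1.56 ± 0.18), Slc1a4 (1.88), Gsr, glutathione reductase (0.97 ± 0.20), and Gclc, the catalytic subunit of the rate-limiting ligase (1.53 ± 0.18; 19.2, 20.8 and 17.5 FPKM in Sham and 64.2, 43.5 and 67 in WT). The falls included Cth (-2.68 ± 0.16) and Cbs (-1.97 ± 0.27), which make cysteine from methionine, and Ggt6 (-2.38 ± 0.28). Gclm, which encodes the other subunit of the same ligase as Gclc, was also called lower in WT than in Sham. It was called higher in both mutants than in WT, and was named after these calls were seen. In RIPK1 D138N 5 rose and 5 fell against WT, and in TNFR1/2 KO 5 rose and 4 fell. Gclc fell in RIPK1 D138N against WT (-0.88 ± 0.18, adjusted p = 0.00118), and its TNFR1/2 KO difference was -0.03 ± 0.18 (adjusted p = 0.916).

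For glucuronidation, 3 of 10 genes of UDP-glucuronate supply rose in WT and 4 fell (median -0.41), again close to the share of all genes for the falls. Ugdh, which makes UDP-glucuronate, rose by 0.68 ± 0.18 (adjusted p = 0.0063) and Pgm1 by 1.08 ± 0.32, while Slc35d1, which carries UDP-glucuronate into the endoplasmic reticulum, fell by 1.93 ± 0.25. Ugdh was higher in WT (96.8, 75 and 101 FPKM against 44.1, 66.9 and 59.1 in Sham) while all 18 tested UGT genes were lower. For sulfation, 8 of 11 genes of PAPS supply and sulfate handling fell and 1 rose in WT. Papss2, the main hepatic PAPS synthase, was at 11.1, 24.6 and 24.6 FPKM in Sham, 7, 6.84 and 6.08 in WT, 20.5, 72.7 and 65.6 in RIPK1 D138N and 24.2, 32.1 and 30.5 in TNFR1/2 KO, and Suox, sulfite oxidase, fell by 2.37 ± 0.22. In RIPK1 D138N 7 of these 11 rose and 1 fell against WT, and in TNFR1/2 KO 6 rose and 1 fell.

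Of 14 other conjugating enzymes and epoxide hydrolases, all 14 fell in WT, and 12 rose in each mutant against WT. Among them Tpmt fell by 3.01 ± 0.21, As3mt by 2.95 ± 0.22 and Ephx2 by 2.93 ± 0.20, and Inmt, an indole and amine methyltransferase, rose by 4.17 ± 0.32 and 3.73 ± 0.32 in the mutants. Of 15 tested transporters of conjugates, 10 fell and 2 rose in WT, with 9 and 11 higher in RIPK1 D138N and TNFR1/2 KO than in WT and 2 lower in each. Abcc2, which exports glutathione and glucuronide conjugates into bile, fell by 1.47 ± 0.29, the uptake carrier Slco1b2 by 2.70 ± 0.30 and Abcb11, the bile salt export pump, by 2.5 ± 0.30, whereas Abcc1 rose by 1.37 ± 0.14. Of 8 tested deconjugating enzymes 6 fell in WT, among them Gusb, the glucuronidase that splits glucuronides (-1.02 ± 0.16), and 5 and 7 were higher in RIPK1 D138N and TNFR1/2 KO than in WT.

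Of 17 regulators tested, 13 fell and 1 rose in WT (median -1.26), where 41.9% of all genes fell and 16.4% rose (median -0.365). The nuclear receptors Nr1h4 (FXR), Nr1i3 (CAR) and Nr1i2 (PXR) fell by 2.67 ± 0.15, 1.68 ± 0.22 and 1.56 ± 0.13, and Nfe2l2, which encodes NRF2, rose by 1.08 ± 0.20 (adjusted p = 0.000594). The log2 difference of Ahr was -0.07 ± 0.23 (adjusted p = 0.82). Of 16 tested AHR, CAR and NRF2 targets outside the conjugating families, 5 rose and 5 fell, with a median of -0.023. The NRF2 targets Hmox1, Osgin1 and Srxn1 rose by 3.92 ± 0.51, 2.27 ± 0.27 and 2.13 ± 0.30, and the CAR and PXR targets Cyp2b10 and Cyp3a11 fell by 3.96 ± 0.49 and 2.82 ± 0.21. From the same list G6pdx was also called higher, and Txnrd1, Cbr3 and Me1 were not called. Of the conjugating enzymes, Gstm1, Gsta3 and Mgst1 were called lower in WT than in Sham and Gsta1 was called higher. The calls of Gstm1 and Gsta3 were lost under quantile normalization. Hmox1 was at 433, 399.5 and 388 FPKM in WT and 113 in RIPK1 D138N replicate 1, 23 and 20.6 in replicates 2 and 3 and 58.9, 132 and 67.3 in TNFR1/2 KO.

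Markers of hepatocytes moved with these results. The 7 hepatocyte markers listed summed to 30960 to 37620 FPKM for Sham libraries, 5791 to 9000 for WT, 19110 to 21110 in RIPK1 D138N and 16980 to 20330 in TNFR1/2 KO, so defining genes of the labelled tissue were present in each group. All 7 fell in WT; Serpina1c was listed at 0 in TNFR1/2 KO. In bulk tissue, fewer hepatocytes and less RNA of these genes per hepatocyte cannot be told apart. Summed over each list, sinusoidal endothelial markers were at 24.53 to 40.36 FPKM for Sham libraries and 14.68 to 17.66 for WT, and stellate cell markers at 145.4 to 183.5 and 184.6 to 244.7. Cholangiocyte markers were at 23.49 to 28.71 FPKM for Sham libraries and 65.89 to 200.7 for WT, Kupffer cell and macrophage markers at 58.08 to 88.23 and 20.59 to 27.6, and neutrophil markers at 37.58 to 81.31 and 4.664 to 259.2. In RIPK1 D138N and TNFR1/2 KO, stellate cell markers summed to 291.3 to 390.8 and 93.57 to 170.4 FPKM, without overlap, and 4 of 7 were called higher in RIPK1 D138N than in TNFR1/2 KO. Sinusoidal endothelial markers were at 13.3 to 88.16 and 8.351 to 41.78 FPKM in the same groups, cholangiocyte markers at 50.68 to 66.14 and 35.07 to 59.16, Kupffer cell and macrophage markers at 15.06 to 18.67 and 6.377 to 11.35, and neutrophil markers at 4.181 to 181.4 and 12 to 156.7. In the mutants the hepatocyte markers that rose over WT were 7 of 7 in RIPK1 D138N and 6 of 7 in TNFR1/2 KO. Erythroid markers were at 166.5 to 316.8 FPKM in Sham, 79.88 to 152.6 in WT, 889.8 to 1766 in RIPK1 D138N and 963.7 to 2004 in TNFR1/2 KO. The part of these cell types in the conjugating enzyme results was not tested.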

How the data were processed

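The authors deposited 1 table of FPKM values for 53796 genes in 12 libraries of mouse liver total RNA. STAR 2.5.4a is named per the submitters' processing notes, as are Cuffdiff, Cufflinks 2.2.1 and the mm10 build, while no source used here gives the strand setting. Columns of RIPK1 D138N and TNFR1/2 KO were matched to numbered replicates, while those of WT and Sham could be matched to their group alone. The library titled with the suffix 0 is RIPK1 D138N replicate 1. Where a symbol recurred (131 rows), the row with the highest mean was used.

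Values were analysed as log2(FPKM + 1) with limma 3.58.1 (mean-variance trend) in R 4.3.3, in 1 model of 4 group means over 12 libraries. Testing was limited to the 11718 genes that reached 1 FPKM in 3 or more libraries, and p-values were adjusted by Benjamini-Hochberg over all of them within a comparison, with calls at an adjusted p under 0.05. Differences are on this scale, which understates the change of low genes. The procedure was tested on simulated data. Correlations across genes were 0.946 to 0.986 between libraries of a group and 0.8 to 0.959 between groups. A value of 0 can be a failed estimate, so such genes are said to be listed at 0. For 2 members (Sult2a5 and Sult2a6) all libraries of a group were at 0 while the mean of another group was at least 20 FPKM. Coordinates came from GENCODE M21, which held all 65 genes, and promoter windows from RefSeq (GRCm38.p6), which held 57. Coding sequence identity and promoter matches were computed with Biopython 1.88.

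The gene families, and so their members, and the lists of other genes were chosen as topics with earlier results of these data known; within the families, genes were taken by symbol, with no cut on their values. Named with values were members with a group mean of 100 FPKM or more, the 12 largest called rises and falls per comparison of genes averaging 5 FPKM or more in a group compared, members of at least 20 FPKM called in no comparison with WT, and members whose RIPK1 D138N replicate 1 differed at least 4 times from both other replicates (42 in all), and from each list up to 3 called changes per direction. Alternatives were other pseudocounts, filters and scalings, fits of only the groups compared, each library left out, a replicate block, and RIPK1 D138N with replicate 1 alone; the scaling of the comparison among RIPK1 D138N replicates was added after the data were seen.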

Additional observations from a re-analysis of the deposited data

Results flagged for a closer look

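For 3 members the effects of the mutants against WT differed by a direct test of RIPK1 D138N against TNFR1/2 KO (limma, adjusted over all genes). Gstt3, a theta class GST, was 2.00 log2 units higher in RIPK1 D138N (adjusted p = 0.0431), with all 3 RIPK1 D138N libraries above all 3 TNFR1/2 KO libraries. Ugt1a10 was 1.54 higher (adjusted p = 0.022) at 1.88 to 4.72 FPKM against 0.373 to 0.662 FPKM. It passed the filter through RIPK1 D138N and 2 Sham libraries, so its call carries no weight of its own. Neither Ugt1a10 nor Gstt3 was called without the filter (adjusted p = 0.0952 and 0.148) or with only these groups (0.0871 and 0.148). Ugt1a6a was lower, at -1.90 (adjusted p = 0.00332), with all 3 RIPK1 D138N libraries below all 3 TNFR1/2 KO libraries. With only these groups its adjusted p was 0.0476, and with a replicate block no member was called. With replicate 1 as the only RIPK1 D138N library the differences were 0.949 for Gstt3, 1.846 for Ugt1a10 and -1.459 for Ugt1a6a. RIPK1 D138N replicates 2 and 3 are the libraries with Xist, so sex and genotype cannot be told apart in them.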

How the results depend on the processing

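Over the tested members among the 42 named, all comparisons and all alternatives, 2992 values kept their direction and side of the threshold, 125 lost a call, 47 gained 1 and 3 reversed. The reversals were under quantile normalization: Gsta4 (0.714) and Gstm3 (0.062) in WT against Sham and Mgst1 (0.048) in RIPK1 D138N against Sham. In WT against Sham and both mutants against WT, counts of members higher and lower stayed within 1.5 times under every alternative, except the lower count of RIPK1 D138N against WT, 2 to 4 when 1 library was left out. RIPK1 D138N against TNFR1/2 KO gave 1 higher and 2 lower with a pseudocount of 0.1, 0 higher without a filter (limma; 23 at an unadjusted p under 0.05), 2 lower at 5 FPKM, 0 higher with only those groups (unadjusted 13), 1 higher and 0 lower with replicate 1 alone (unadjusted 2 lower), and 0 to 10 higher and 1 to 8 lower without 1 library (0 without RIPK1 D138N replicate 3 or any TNFR1/2 KO replicate, with 11 to 14 unadjusted, and 10 and 8 without RIPK1 D138N replicate 1). RIPK1 D138N against Sham gave 7 lower without a filter, 16 and 7 with median-of-ratios scaling, 15 and 5 with quantile normalization, 3 and 2 with replicate 1 alone, and 8 to 14 and 7 to 12 without 1 library. TNFR1/2 KO against Sham gave 2 and 4 without a filter, 4 lower with median-of-ratios scaling, 3 lower with quantile normalization, and 2 to 4 and 4 to 7 without 1 library. With a replicate block, RIPK1 D138N against TNFR1/2 KO gave 0 higher and 0 lower (limma; 13 and 6 at an unadjusted p under 0.05); the numbers did not pair the libraries (correlations of -0.098, -0.202 and 0.057). No paired analysis was possible because WT and Sham columns carry no replicate number, in the comparisons with these groups. Median-of-ratios scaling moved the summed GST level of Sham to 4721 FPKM, the UGT level of Sham to 1775 and the SULT level of WT to 224.2. Of all genes called, the share higher went from 28.1% to 45.2% with median-of-ratios scaling and 48.1% with quantile normalization in WT against Sham, from 57.6% to 51.4% and 47.9% in RIPK1 D138N against WT, from 62.7% to 52.7% and 48% in TNFR1/2 KO against WT, from 37.6% to 51.2% and 52.1% in RIPK1 D138N against TNFR1/2 KO, from 24.9% to 47.9% and 46.4% in RIPK1 D138N against Sham and from 29.1% to 51% and 48.7% in TNFR1/2 KO against Sham. The cause of these changes was not tested. Low values are coarsest in 2 Sham libraries, and FPKM gives no counting error.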
